A study of Mus musculus with 8 samples.

Results

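C-type lectins are proteins that carry a compact fold first known for binding sugars with calcium, and the genes named Clec are a large share of them. The Clec genes described here were all genes of the deposited array table whose single annotated symbol is Clec followed by a number. There were 32 of them among 18820 genes tested, read by 33 probe sets, and where a gene had more than 1 (Clec4g alone, with 2) the brighter by its mean over the 8 arrays was used. Of the 32 genes, 24 lie on chromosome 6.

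Expression was measured in epididymal white fat of male C57BL/6 mice fed for 16 weeks on a diet in which fat supplied 45% of energy, which followed 2 weeks on one in which it supplied 10%. All mice ate these diets, so there was no lean group. 4 arrays came from wild-type C57BL/6 mice bought from the Jackson Laboratories, and 4 from IL-37tg mice, made on a C57Bl/6 background and transgenic for IL37, a human cytokine of the IL-1 family that restrains innate inflammation. The labels do not give the promoter or the cell type that drives the transgene, do not call the wild-type mice littermates and do not say that each array is a separate mouse, so p-values measure the spread between these samples only. No probe set was annotated to IL37, so the labels were not checked against the transgene.

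Values are log2 expression levels, on which a step of 1 is a doubling, and differences are transgenic minus wild type. Array medians lay between 5.97 and 6.04 over 35556 probe sets. A gene was called higher or lower at a limma Benjamini-Hochberg adjusted p of at most 0.05 over all genes, which held for 390 and 239 of the 18820 genes. The number of arrays limits the precision. Fat was recognised by its own genes: the 6 adipocyte markers, adiponectin and perilipin-1 among them, averaged 12.15 to 12.22 in wild-type and 12.27 to 12.35 in transgenic arrays. 2 arrays stood apart. Wild-type replicate 3 had the lowest macrophage marker level of its group (9.61 over 11 markers, against up to 10.45), inside the transgenic range of 9.31 to 9.71. It also had the highest B cell marker level (7.98 over 3 markers, against 6.28 to 6.68 in the rest of its group). Transgenic replicate 4 had high levels of sperm transcripts, described with Clec2m.

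Clec proteins of myeloid cells act as pattern receptors for fungi, bacteria and material from dying cells. Activating members either carry their own tyrosine motif or pair with the adaptors Fcer1g and Tyrobp, and signal through the kinase Syk and the scaffold Card9. Inhibitory members carry a motif that recruits phosphatases. Other Clec proteins are endocytic, serve as ligands of natural killer cell receptors, or are secreted. In obese fat the myeloid members are carried chiefly by macrophages and dendritic cells. In whole tissue, fewer cells of a type and less RNA per cell cannot be told apart.

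Of the 32 Clec genes, Clec12a fell and Clec2d rose, and the other 30 were not called. That share, 6.25%, is 2 genes, and the background was 3.34% of all genes called (1.27% lower and 2.07% higher). 8 Clec genes, or 25%, had an unadjusted p under 0.05, against 20.6% of all genes. Groups did not overlap for 4 Clec genes (Clec12a, Clec2d, Clec1b and Clec2h), or 12.5%, against 14.0% of all genes: 2 higher and 2 lower, against 8.24% and 5.73% of all genes. These shares are near the background, and the median difference of the 32 genes was -0.04 beside 0.02 for all genes. Differences were below 0 for 19 Clec genes and above 0 for 13, while 55.3% of all genes had differences above 0.

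**Figure D1:**
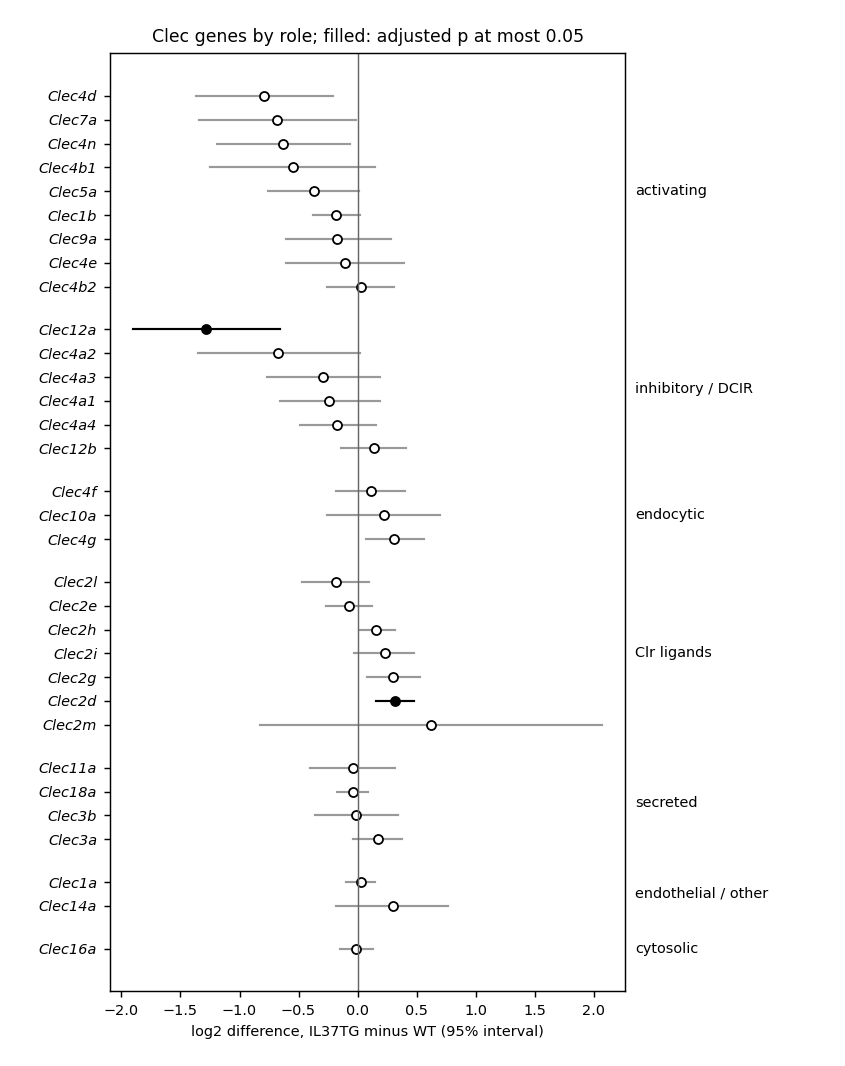
Log2 difference between transgenic and wild-type fat for each of the 32 Clec genes, grouped by role, with its 95% interval (limma, 4 arrays a group). Filled points mark Clec12a (-1.28) and Clec2d (0.32), the genes called; most activating receptors lie to the left of 0 and most Clr genes to the right.

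Promoter sequences are shown for the called genes Clec12a and Clec2d, for Clec7a, which closes the same gene cluster, and for Clec4d, which had the largest difference among the activating receptors. They are the 250 bases before each start annotated by RefSeq on GRCm38.p6, read 5′ to 3′ along the gene. For Clec12a this start lies inside the annotated span of the gene, and for Clec7a the more upstream of 2 starts is shown. Capitals mark matches on either strand to GAGGAA, the core of the site of PU.1, a transcription factor of myeloid cells.
Clec12a, chr6:129349994-129350243, plus strand: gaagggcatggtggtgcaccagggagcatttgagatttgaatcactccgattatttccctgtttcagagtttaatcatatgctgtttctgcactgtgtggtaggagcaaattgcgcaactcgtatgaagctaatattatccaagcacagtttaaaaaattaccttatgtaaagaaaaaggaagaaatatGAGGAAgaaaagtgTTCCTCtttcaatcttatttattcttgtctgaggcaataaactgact
Clec2d, chr6:129180365-129180614, plus strand: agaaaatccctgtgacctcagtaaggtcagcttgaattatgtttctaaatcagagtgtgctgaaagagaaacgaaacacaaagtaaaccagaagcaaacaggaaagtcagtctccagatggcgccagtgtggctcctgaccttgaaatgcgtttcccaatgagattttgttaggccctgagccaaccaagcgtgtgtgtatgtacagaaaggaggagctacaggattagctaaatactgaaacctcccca
Clec7a, chr6:129472786-129473035, minus strand: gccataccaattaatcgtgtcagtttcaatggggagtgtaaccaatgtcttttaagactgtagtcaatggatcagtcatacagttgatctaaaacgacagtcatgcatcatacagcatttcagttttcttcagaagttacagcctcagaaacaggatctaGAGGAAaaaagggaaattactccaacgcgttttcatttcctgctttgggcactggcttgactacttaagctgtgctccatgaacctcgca
Clec4d, chr6:123261857-123262106, plus strand: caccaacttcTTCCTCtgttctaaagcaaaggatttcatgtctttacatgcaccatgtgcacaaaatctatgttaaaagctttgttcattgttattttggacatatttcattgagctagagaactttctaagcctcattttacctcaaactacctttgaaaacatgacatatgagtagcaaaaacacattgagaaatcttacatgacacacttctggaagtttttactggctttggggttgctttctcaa
Clec12a has a match on each strand, beginning at positions -61 and -47 from the start. Clec7a has 1 match, at -90, Clec4d has 1 match, at -240, and Clec2d has none. Promoters were in the table for 26 of the 32 genes, and 14 of these hold the letters (15 of 29 windows, or 51.7%), against 23.3% of 32851 promoter windows of all genes. They include receptors of myeloid cells (Clec4a1, Clec4a3, Clec4b1, Clec4e, Clec5a) and genes of other cells (Clec11a, Clec14a, Clec16a, Clec2l). Among the genes with a promoter and no match were the receptor genes Clec4a2, Clec9a and Clec12b. Several Clec genes are close relatives in one cluster, so their windows are not independent. A match describes the letters and is not evidence of binding.

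Clec12a encodes MICL, an inhibitory receptor of granulocytes, monocytes, macrophages and dendritic cells that senses uric acid crystals and restrains activation. Its level was 10.10, 10.15, 8.88 and 9.67 in wild-type replicates 1 to 4, and 8.54, 8.52, 8.54 and 8.09 in transgenic replicates 1 to 4. Every transgenic array lay below every wild-type array, with wild-type replicate 3 nearest to them. Clec12a was 2.43-fold lower in transgenic fat, from 9.70 ± 0.59 to 8.42 ± 0.22 (SD, 4 arrays in each group; log2 -1.28 with an SE of 0.27, limma adjusted p = 0.0469). Of 11 macrophage markers, 10 had differences below 0, 1 of them called (Fcgr1), and their mean levels were given above. Over all genes 3.34% were called. The 6 measured markers of lipid-associated macrophages were all below 0, 2 of them called (Trem2 and Ctsk), with mean levels of 9.23 to 10.47 in wild-type and 8.37 to 9.08 in transgenic arrays. No marker of either list was in the dimmest 25% of genes. The 6 neutrophil markers were mixed, with 4 differences below 0 and 2 above. S100a8 (-1.51, limma adjusted p = 0.028) and Csf3r (-0.46, limma adjusted p = 0.0201) fell, while Retnlg differed by 0.88 and Cxcr2 by 0.07, neither called. Mean levels of the list were 4.92 to 5.11 in wild-type and 4.61 to 5.07 in transgenic arrays, and Mmp8 and Cxcr2 were in the dimmest 25%. Of the 6 resident macrophage markers 4 were above 0, with Cd163 called higher (0.77, limma adjusted p = 0.0212). The other 2, Mrc1 (-0.37) and Folr2 (-0.08), were below 0 and not called. The mean level of this list was 8.81 to 9.28 in wild-type and 9.13 to 9.47 in transgenic arrays. The 4 measured monocyte markers, of which Chil3 was in the dimmest 25%, had 3 differences below 0 and 1 above. The 8 dendritic cell markers had 3 below 0 and 5 above. None of these monocyte and dendritic cell markers was called. The markers' part in the Clec12a difference was not tested. Leaving out any 1 array other than wild-type replicate 3 ended the call (limma adjusted p from 0.0830 to 0.128), as did fitting all probe sets (0.0696). The names of the arrays hold a letter and a number, whose meaning the labels do not state, and these are uneven between groups. The letter F occurs only in wild-type arrays, H only in transgenic arrays and G in both, so the letter largely goes with the group. Only the names of transgenic replicates 2 and 3 end in 2, and the part of this mark was not tested. With the letter as a block the difference was -0.74 (limma adjusted p = 0.468). Within the names numbered 5, 7 and 9 it was -0.37, -1.35 and -1.83, from 1 wild-type and 1 transgenic array, 2 and 1, and 1 and 2. Wild-type replicate 3 is the only wild-type array numbered 5 and 1 of 2 with the letter that both groups share.

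Clec2d encodes Clr-b, a surface ligand that engages the inhibitory natural killer cell receptor encoded by Klrb1b. Wild-type replicates 1 to 4 had levels of 10.91, 10.95, 10.89 and 10.85, and transgenic replicates 1 to 4 had 11.20, 11.17, 11.39 and 11.13. The groups did not overlap and the wild-type arrays were nearly alike. Clec2d was 1.25-fold higher, from 10.90 ± 0.04 to 11.22 ± 0.11 (SD, n = 4; log2 0.32, SE 0.07, limma adjusted p = 0.0469). The mean level of the adipocyte markers lay higher in each transgenic array too, as given above. Of the 6 markers 5 had differences above 0, 1 of them called (Adipoq), and Lep differed by -0.06. Their part in the Clec2d difference was not tested. The call ended on removal of any 1 of the 8 arrays (limma adjusted p from 0.0568 to 0.137), after a second quantile normalisation (0.0686), on centring the arrays (0.0525) and with all probe sets fitted (0.0741). Its size moved little, from 0.27 to 0.35 across removals. With the letter of the array name as a block it was 0.33 (limma adjusted p = 0.424), and within numbers 5, 7 and 9 it was 0.27, 0.51 and 0.22.

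**Figure D2:**
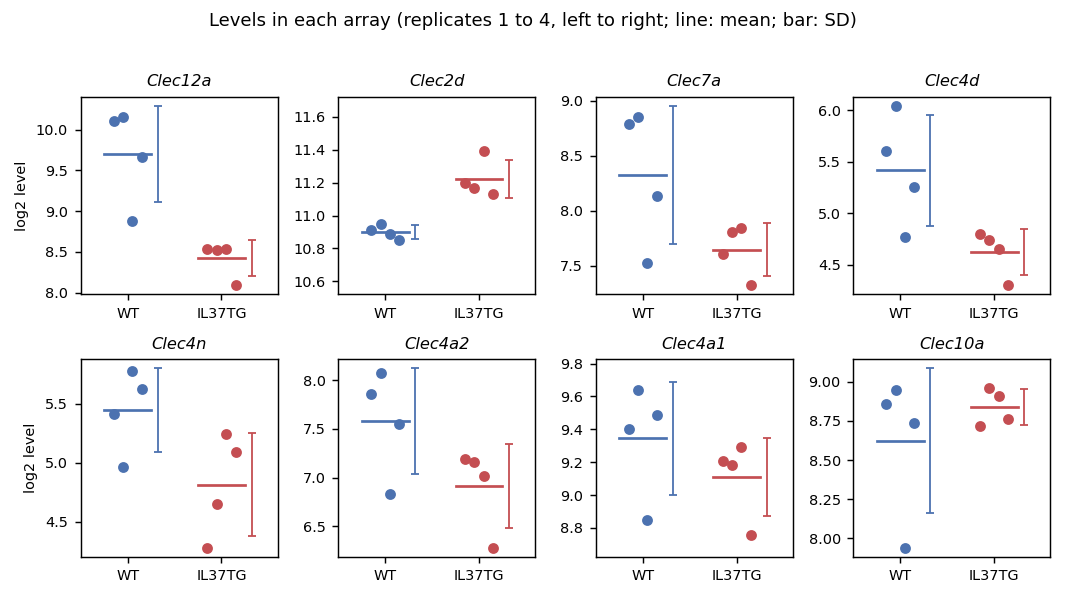
Log2 level of 8 Clec genes in each array, with wild-type (WT) replicates 1 to 4 and transgenic (IL37TG) replicates 1 to 4 from left to right, the group mean as a line and the SD as a bar; each panel has its own axis. Clec12a and Clec2d have groups that do not overlap, while the third wild-type point reaches the transgenic range for Clec7a, Clec4d, Clec4a2 and Clec4a1.

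Of the 9 activating receptors, none was called by limma, 8 had differences below 0 and 3 of them an unadjusted p under 0.05. Clec7a encodes Dectin-1, the receptor for fungal beta-glucan. It had levels of 8.79, 8.85, 7.52 and 8.13 in wild-type and 7.61, 7.81, 7.84 and 7.32 in transgenic arrays. Wild-type replicate 3 lay within the transgenic values, and the difference was -0.68 (95% interval -1.34 to -0.01, limma adjusted p = 0.237). Without that array, which had the lowest wild-type value, it was -0.94 (limma adjusted p = 0.0401), a widening fixed by the choice of array.

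The Dectin-2 group pairs with Fcer1g. Clec4d encodes MCL, a receptor for mycobacterial glycolipid, with levels of 5.60, 6.04, 4.77 and 5.26 in wild-type and 4.80, 4.74, 4.65 and 4.30 in transgenic arrays. The groups overlapped through wild-type replicate 3 (difference -0.79, 95% interval -1.37 to -0.21, limma adjusted p = 0.127). Without that array, again the lowest of its group, the difference was -1.01 and was called (limma adjusted p = 0.0286), a widening fixed by the choice of array. Clec4n, the gene of Dectin-2 itself, which binds fungal mannan, read 5.41, 4.96, 5.78 and 5.62 in wild-type and 4.28, 4.65, 5.24 and 5.09 in transgenic arrays. Here wild-type replicate 3 was the highest array, not the lowest of its group. The Clec4n difference was -0.63 (limma adjusted p = 0.198). Clec4e, the gene of Mincle, another glycolipid receptor, had a smaller difference of -0.11 (95% interval -0.61 to 0.39). It read 4.81, 5.40, 4.94 and 4.81 in wild-type and 5.45, 4.85, 4.75 and 4.47 in transgenic arrays. The groups of Clec4n and of Clec4e overlapped.

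Clec4b1, a DCAR gene, had levels of 6.73, 7.31, 5.87 and 6.48 in wild-type and 6.41, 6.32, 5.80 and 5.65 in transgenic arrays, and a difference of -0.55 (limma adjusted p = 0.347). Its neighbour Clec4b2 differed by 0.03, with a mean level below 4.49, the 25th percentile of gene means. No detection calls were used, and a gene that low was not shown to be above background. Clec5a, a receptor that signals through Tyrobp and is known from myeloid cells, read 5.91, 5.75, 5.44 and 5.39 in wild-type and 5.45, 5.54, 5.03 and 4.97 in transgenic arrays (difference -0.37, limma adjusted p = 0.258). The groups of Clec5a overlapped.

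Clec9a encodes DNGR-1, by which cross-presenting dendritic cells sense the actin of dead cells. It had levels of 6.95, 7.21, 6.73 and 7.38 in wild-type and 6.87, 7.10, 7.19 and 6.44 in transgenic arrays, and the ranges overlapped (difference -0.17, 95% interval -0.61 to 0.28). The mean level of 8 dendritic cell markers was 6.38 to 6.59 in wild-type and 6.49 to 6.74 in transgenic arrays. Of these markers 5 had differences above 0, the largest for Cd209a (0.90), and 3 below 0. Xcr1 differed by -0.26 and Batf3 by 0.03, and no marker of the list was called. Clec1b encodes CLEC-2, the platelet receptor for podoplanin. Its levels were 4.27, 4.58, 4.28 and 4.20 against 4.19, 4.11, 4.16 and 4.15, so the groups did not overlap but nearly met at 4.20 and 4.19. It was among the dimmest genes, as defined above for Clec4b2, and was not called (difference -0.18, limma adjusted p = 0.287), nor was the podoplanin gene Pdpn (-0.08).

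Of the 6 genes with an inhibitory motif or related to it, Clec12a fell and the others were not called. The DCIR genes, whose founding member carries an inhibitory motif, are close relatives in one cluster, and their probes may in part read each other. Clec4a2, the gene of DCIR, read 7.86, 8.07, 6.83 and 7.55 in wild-type and 7.19, 7.16, 7.02 and 6.28 in transgenic arrays (difference -0.67, 95% interval -1.35 to 0.02, limma adjusted p = 0.254). Clec4a3 had levels of 9.69, 9.87, 8.99 and 9.41 in wild-type and 9.40, 9.37, 9.24 and 8.78 in transgenic arrays, with a difference of -0.29. Clec4a1 had 9.40, 9.64, 8.85 and 9.49 in wild-type and 9.21, 9.18, 9.29 and 8.76 in transgenic arrays, with a difference of -0.24. In these 3 genes the lowest array of each group was the same, wild-type replicate 3 and transgenic replicate 4. Clec4a4, the DCIR2 gene, differed by -0.17 at a level below the 25th percentile, and Clec12b by 0.14. The Clec12b gene overlaps Clec1b, Clec9a and Clec1a in the annotation, and whether its probes separate them was not tested.

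The same pair of arrays recurred in other Clec genes. Wild-type replicate 3 was the lowest wild-type array for 17 of the 32 Clec genes (53.1%) and transgenic replicate 4 the lowest transgenic array for 18 (56.2%), against 37.8% and 37.2% of all genes. Among the 11 Clec genes at or above the median gene each was lowest for 9 (81.8%), against 33.8% and 34.6% of all genes at or above it. With both arrays left out, a choice made after the values were seen, Clec12a (-1.45), Clec4a2 and Clec4d (-0.90) were called lower, and Clec2d (0.35, limma adjusted p = 0.0631) was not called. Calls rose among all genes too, with 491 of 18820 called lower in that setting against 239 with all arrays. With the letter of the array names as a block, which leaves the comparison to wild-type replicates 3 and 4 and transgenic replicate 1, Clec7a differed by -0.21, Clec4d by -0.22 and Clec4a2 by 0.00, and Clec4a3 turned to 0.20 and Clec4b1 to 0.23. Clec4n moved the other way, from -0.63 to -1.42 (limma adjusted p = 0.13). These values therefore rest in part on wild-type replicate 3.

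Most of these receptors are neighbours. On chromosome 6 the 9 genes from Clec4a1 to Clec4e follow each other with no other coding gene between them. Of the 9, 8 had differences below 0, none called and 2 with an unadjusted p under 0.05. Among all genes 20.6% had an unadjusted p that low and 3.34% were called. With the letter of the array names as a block, Clec4a1, Clec4a3, Clec4b1 and Clec4e turned above 0. Farther along, in the natural killer gene complex, 7 coding genes from Clec2m to Clec7a also follow each other. There Clec12a, at -1.28, sits beside Clec2m and Clec12b, neither of which was called. In the wider stretch of 19 coding genes from Clec2h to Clec7a, 12 are measured Clec genes, and both called genes of the family are among them, 1 higher and 1 lower.

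**Figure D3:**
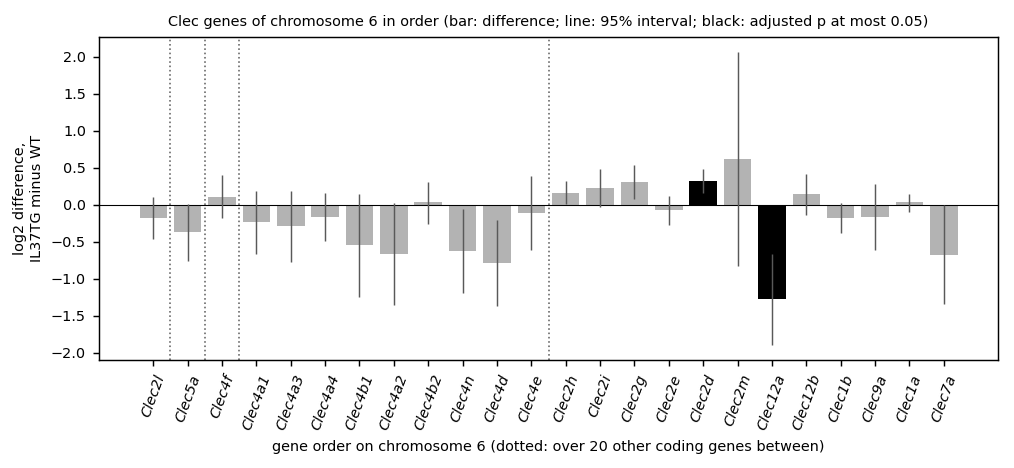
Log2 difference between transgenic and wild-type fat for the 24 Clec genes of chromosome 6, in gene order, with bars for the difference, lines for its 95% interval and black for the called genes Clec2d and Clec12a. Bars are mostly below 0 from Clec4a1 to Clec4e, whereas from Clec2h to Clec7a they lie on both sides.

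Because arrays differed in myeloid signal, levels were also taken relative to Clec7a in the same array, a comparison chosen after the values were seen and given without a test. It covers the other 10 Clec genes at or above the median gene, and it shows unequal change between 2 genes, not which of them changed. Clec12a exceeded Clec7a by 1.32, 1.30, 1.36 and 1.54 in wild-type arrays and by 0.92, 0.70, 0.70 and 0.77 in transgenic arrays. The groups did not overlap, and wild-type replicate 3 lay among its own group on this scale. The difference between groups was -0.61. Of all 18819 other genes, 0.276% had groups that did not overlap in this direction relative to Clec7a. Clec7a itself differed by -0.68, which moves other genes up on this scale. The low share therefore depends on the choice of reference and is no measure of how unusual Clec12a is.

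Clec10a moved the other way on this scale. It exceeded Clec7a by 0.08, 0.10, 0.42 and 0.60 in wild-type arrays and by 1.11, 1.15, 1.07 and 1.44 in transgenic arrays, a difference of 0.89 with no overlap. For Clec4a1 the values were 0.61, 0.79, 1.33 and 1.36 against 1.59, 1.37, 1.45 and 1.43, again without overlap, though 1.36 and 1.37 nearly met. Among all other genes 5.60% had separate groups in that higher direction. The other 7 genes overlapped. For Clec4a2 the group means were alike, at -0.75 ± 0.15 and -0.74 ± 0.26 (SD, n = 4), but the transgenic arrays spread from -1.05 to -0.43.

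**Figure D4:**
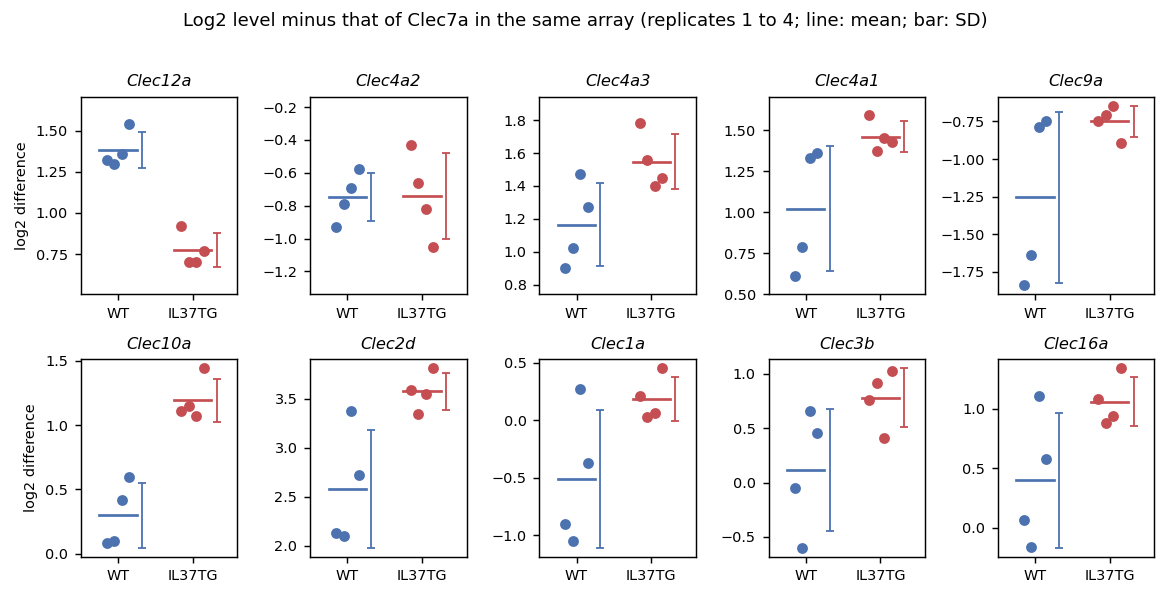
Log2 level of 10 Clec genes minus that of Clec7a in the same array, for wild-type (WT) and transgenic (IL37TG) replicates 1 to 4, with the group mean as a line and the SD as a bar; axes differ between panels. Clec12a is lower in each transgenic array (0.70 to 0.92 against 1.30 to 1.54), Clec10a and Clec4a1 are higher in each, and the other panels overlap.

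Of the 3 endocytic receptors related to the asialoglycoprotein receptor, none was called by limma and all had differences above 0, 1 of them (Clec4g) with an unadjusted p under 0.05. Clec10a encodes MGL1, or CD301a, which binds galactose-type sugars and is used as a marker of alternatively activated macrophages in fat. Its levels were 8.86, 8.95, 7.94 and 8.74 in wild-type and 8.72, 8.96, 8.91 and 8.76 in transgenic arrays. Apart from wild-type replicate 3 the groups were alike. The difference was 0.22 (95% interval -0.26 to 0.70, limma adjusted p = 0.596), and it was -0.01 without that array. Its paralog Mgl2 was 8.19, 8.89, 8.28 and 8.73 in wild-type and 9.72, 9.86, 8.93 and 9.08 in transgenic arrays, with no overlap (difference 0.87, limma adjusted p = 0.0984). Clec4g, known as LSECtin from sinusoidal cells of the liver, differed by 0.31 (limma adjusted p = 0.144), but its dimmer second probe set differed by 0.00. Clec4f, known as a marker of Kupffer cells, differed by 0.11.

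The Clr genes (Clec2 followed by a letter) encode ligands, or relatives of ligands, of natural killer receptors. Of the 7, Clec2d rose and the others were not called, with 5 differences above 0. Clec2h had levels of 4.33, 4.47, 4.46 and 4.52 in wild-type and 4.72, 4.62, 4.59 and 4.52 in transgenic arrays, where the groups were separate but met at 4.52 (difference 0.16, limma adjusted p = 0.209). Clec2g, below the 25th percentile, differed by 0.30 (limma adjusted p = 0.136). Clec2i, the gene of Clr-g, differed by 0.23 (limma adjusted p = 0.297), Clec2e by -0.07 and Clec2l by -0.18. The receptor genes measured were not called either: Klrb1b, which pairs with Clec2d, differed by 0.09, Klrb1f by 0.08 and Klrb1c by -0.03. The 5 natural killer cell markers had a mean level of 4.87 to 5.08 in wild-type and 4.68 to 5.0 in transgenic arrays.

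Clec2m stood out in 1 array. Its level was 3.88, 3.88, 4.02 and 4.05 in wild-type and 3.70, 3.87, 3.95 and 6.78 in transgenic arrays, so transgenic replicate 4 lay 2.73 log2 units above every other array. Clec2m is listed in the gene table with a synonym of the spermatogenesis-associated series. The group difference of 0.62 (limma adjusted p = 0.619) became -0.12 without that array. Sperm genes stood out in the same array: Prm1, a protamine that packs sperm DNA, was 11.97 there and 4.79 to 7.64 in the other 7, and Tnp1, a transition protein of spermatids, was 7.86 against 4.45 to 4.85. Of 13 measured sperm genes, from a list written after the values were seen, 12 were highest in transgenic replicate 4. Their mean level was 4.57 to 5.08 in wild-type and 4.51 to 8.27 in transgenic arrays. The epididymis markers Lcn5, Defb20 and Spint4 did not share this (4.38, 4.51 and 2.98 in that array). In all, 170 genes lay at least 2 log2 units above every other array there, against at most 2 genes in any other array.

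**Figure D5:**
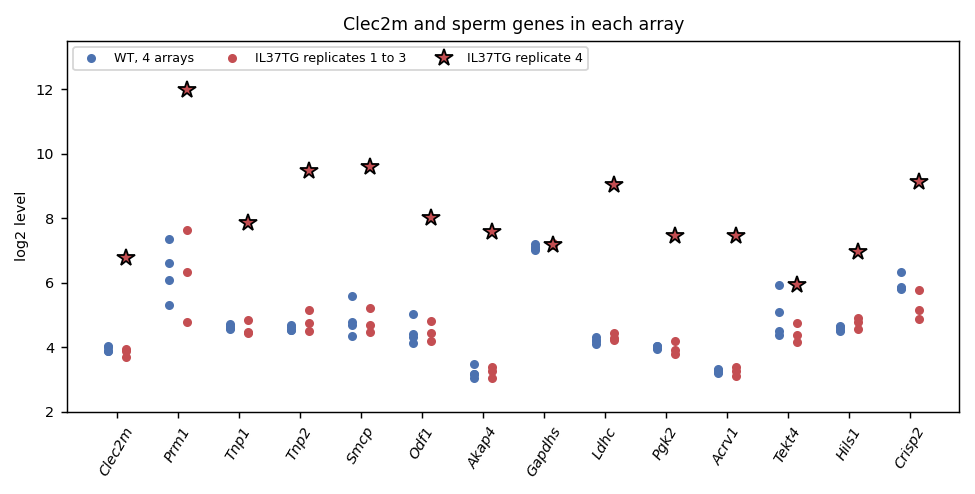
Log2 level of Clec2m and 13 sperm genes in the 4 wild-type arrays (blue), transgenic replicates 1 to 3 (red dots) and transgenic replicate 4 (star). The star stands clear of all other points for Clec2m, at 6.78, and for most sperm genes, with Gapdhs (level in every array) and Tekt4 (close to a wild-type array) the exceptions.

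None of the 4 secreted members was called by limma, and 0 had an unadjusted p under 0.05. Clec3b, the gene of the plasminogen-binding protein tetranectin, read 8.74, 8.25, 8.17 and 8.59 in wild-type and 8.37, 8.73, 8.25 and 8.35 in transgenic arrays (difference -0.01, 95% interval -0.36 to 0.34). Clec11a, a growth factor of bone and blood progenitors, read 6.57, 6.08, 6.16 and 6.42 against 6.13, 6.66, 6.05 and 6.25 (difference -0.04). Both genes overlapped between groups. Clec3a, known from cartilage, differed by 0.17 and Clec18a by -0.04.

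Clec14a, an endothelial receptor that binds the matrix protein encoded by Mmrn2, had levels of 6.19, 6.23, 6.79 and 6.20 in wild-type and 6.17, 6.61, 6.74 and 7.07 in transgenic arrays. Its difference of 0.30 (limma adjusted p = 0.463) turned to -0.33 with the letter of the array name as a block. Mmrn2 differed by 0.12, the related Clec1a by 0.03, and the 6 endothelial markers averaged 9.85 to 10.06 in wild-type and 9.93 to 10.20 in transgenic arrays. Clec16a shares the name but encodes a cytosolic protein of autophagy. It was steady, at 8.84, 8.69, 8.62 and 8.72 against 8.70, 8.69, 8.78 and 8.67 (difference -0.01, 95% interval -0.15 to 0.13).

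Of 19 measured genes that carry Clec signals, none was called by limma, 16 had differences below 0 and the median difference was -0.26. The adaptor gene Fcer1g had levels of 11.54, 11.80, 10.90 and 11.25 in wild-type and 11.06, 10.97, 10.85 and 10.38 in transgenic arrays (difference -0.56, limma adjusted p = 0.189). Tyrobp differed by -0.39, Syk by -0.24 and Card9 by -0.38 (limma adjusted p = 0.391, 0.637 and 0.341). Without wild-type replicate 3, lowest of its group for all 3, Card9 was called at -0.59 (limma adjusted p = 0.0357), a widening fixed by the choice of array. At an unadjusted p under 0.05 there were 7 of the 19 (36.8%), against 20.6% of all genes. Of 11 measured ligands and partners none was called and 0 had an unadjusted p under 0.05.

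Among 45 measured C-type lectins without a Clec symbol, 3 rose and 1 fell, or 8.89%, against 3.34% of all genes. Thbd, the gene of thrombomodulin, rose from 8.82 ± 0.05 to 9.85 ± 0.19 (SD, n = 4). Its log2 difference was 1.03 (SE 0.09, limma adjusted p = 0.00535), and which cells carried it was not tested. Cd72, a receptor of B cells and macrophages with an inhibitory motif, fell from 8.82 ± 0.66 to 6.47 ± 0.31 (log2 -2.35, SE 0.32, limma adjusted p = 0.0138). Its levels did not overlap (7.94 to 9.39 against 6.06 to 6.77). The Cd72 difference was no longer called without wild-type replicate 4 (-2.39, limma adjusted p = 0.0534) or with the letter (-1.71, 0.162) or the number (-2.32, 0.0541) of the array names as a block, and the Thbd call ended with the letter as a block (1.13, limma adjusted p = 0.0582). Cd209f and Cd209g, mouse relatives of the dendritic cell lectin DC-SIGN, rose by 0.89 and 0.92 (limma adjusted p = 0.0206 and 0.0431). The Cd209g call ended without any 1 of 6 arrays and the Cd209f call without any 1 of 4. Neither was called with the replicate number as a block (limma adjusted p = 0.0897 for Cd209f and 0.125 for Cd209g). The same held with the array name number as a block (0.0659 and 0.0805), and for Cd209g with all probe sets fitted (0.0623). With the letter as a block the differences were 0.71 and 0.70. Whether the probes of the Cd209 genes separate them was not tested.

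The other Cd209 genes, from Cd209a to Cd209e, were not called but had differences from 0.40 to 0.90, and Clec4g lies in the same cluster on chromosome 8, next to Cd209a in the gene table. Mrc1, the macrophage mannose receptor, differed by -0.37 (limma adjusted p = 0.124).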

How the data were processed

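Whole-transcript arrays read total RNA from 8 samples. The deposited table holds log2 values from RMA, per the submitters' processing notes, which corrects background, quantile-normalises and summarises probes. Quantile normalisation gives arrays nearly the same distribution, and differences at low signal are compressed. The array scanner files were not used here.

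The platform annotation gave a single symbol for 21218 of the 35556 probe sets, several for 1881 and no symbol for 12457. Symbols of 21185 were updated through Entrez IDs. Only those with 1 symbol were kept, and the probe set with the highest mean stood for a gene. The 18820 genes were fitted together in R 4.3.3 by lmFit and eBayes of limma 3.58.1 (2-sided, no covariate), with Benjamini-Hochberg adjustment. The script was tested on simulated data.

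By the rule for named genes, every Clec gene was named, with values by array for those called, those whose groups did not overlap and a fixed panel, and of the other lists the genes called, Fcer1g, Tyrobp, Syk, Card9, Mrc1 and the Cd209 genes. Pdpn, Mmrn2, Klrb1b, Klrb1c, Klrb1f, Mgl2 and the sperm genes were added after their values were seen. The members, gene lists and comparisons were chosen with earlier results of these data known. Alternatives covered normalisation, filters, probe set choice, the variance prior, array weights, blocks and leaving out arrays. Same-numbered arrays were not treated as pairs, since the labels do not say that numbers are shared and not every correlation of deviations passed 0.1.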

Additional observations from a re-analysis of the deposited data

Results flagged for a closer look

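Single arrays stood far from the other 3 of their group in 6 of 92 groups of 4 arrays (46 genes, 6.52%), where chance gives about 1 in 20. In transgenic fat, replicate 4 was lowest for Clec12a (8.09, next 8.52) and for the kinase gene Syk (7.62, next 8.10), and highest for Clec2m (6.78, next 3.95), the array with sperm transcripts. In wild-type fat, replicate 3 was highest for the endothelial gene Clec14a (6.79, next 6.23) and lowest for the scaffold gene Card9 (5.42, next 6.20) and the mannose receptor gene Mrc1 (10.29, next 10.73).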

How the results depend on the processing

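Both Clec calls lay close to the threshold. Against 1 Clec gene called higher and 1 lower, none was called higher after a second quantile normalisation or on centring the arrays, and 0 higher and 0 lower with all probe sets in the fit or with the replicate number, the letter or the number of the array names as a block. With the replicate number as a block, 40 genes were called higher and 53 lower (Clec12a limma adjusted p = 0.0949, Clec2d 0.115, Cd72 0.0658; other lectins 1 and 0). Same-numbered arrays had correlations of deviations of 0.057 to 0.102, and 2 of 8 arrays were closest to their own number. The letter as a block gave 10 and 60 genes (other lectins 0 and 0), and the array name number 44 and 28 (other lectins 1 and 0). Keeping genes at or above the median gave 741 and 554 (other lectins 6 and 2, signalling 1 lower, Clec median -0.17), and array weights gave 724 and 539 (other lectins 3 lower, signalling 2 lower). An adjusted p of 0.1 gave 857 and 680 (other lectins 8 and 2, signalling 1 lower). Without wild-type replicate 3 and transgenic replicate 4, added after the values were seen, 491 genes were lower, with 0 Clec genes higher and 3 lower, 2 other lectins lower and 5 signalling genes lower. Leaving out 1 array gave 0 to 0 Clec genes higher and 0 to 3 lower, 50 to 520 genes higher and 32 to 668 lower, 1 to 3 other lectins higher and 0 to 3 lower, and 0 to 6 signalling genes lower; the Clec median was -0.09 to -0.01.

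Directions of small differences turned. Clec4b2 went to 0.00 after a second quantile normalisation and with array weights, Clec16a to 0.00 on centring, Clec4g to 0.00 on its second probe set and Clec4e to 0.03 with array weights. With the letter as a block Clec12b was -0.13, Clec14a -0.33, Clec2m -0.33, Clec4a1 0.04, Clec4a3 0.20, Clec4b1 0.23, Clec4e 0.57, Clec5a 0.03, Clec16a 0.03, Tyrobp 0.09, Syk 0.22 and Card9 0.12. With the array name number as a block Clec11a was 0.01, Clec16a 0.02 and Clec3b 0.04. Without the 2 arrays together Clec2m was -0.10, Clec4b2 -0.04 and Clec4e 0.01. Leaving out 1 array turned Clec10a (-0.01 to 0.33), Clec11a (-0.17 to 0.05), Clec16a (-0.04 to 0.03), Clec2m (-0.12 to 0.91), Clec3b (-0.12 to 0.09), Clec4b2 (-0.04 to 0.14) and Clec4e (-0.30 to 0.02). The cause of these changes was not tested. The 5 Clec genes below the 25th percentile of gene means were not shown to be above background.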
